A study of Mus musculus with 4 samples.

Results

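The microRNA miR-22 was followed through its mature products, mmu-miR-22-3p and mmu-miR-22-5p (miR-22-3p and miR-22-5p below), which are cut from opposite arms of 1 hairpin. These 2 mature miRNAs were taken by name from the 1907 in the count tables, and the hairpin was chosen by its abundance, that is, by the level of its reads in these liver libraries. Small RNA was sequenced from the livers of C57BL/6 mice aged 15 weeks. The 2 control libraries are labelled only as control, with no vehicle named. The 2 treated libraries came from mice that received thioacetamide (TAA), a liver toxin used to produce fibrosis in rodents, at 200 mg/kg, injected into the peritoneum on 3 occasions each week over 10 weeks. The design text calls the libraries biological replicates but ties none to a named animal, so p-values measure the spread between these libraries.

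A miRNA is loaded into an Argonaute protein and guides it to messenger RNAs, mainly through pairing of its seed, bases 2 to 8, with sites in the messenger. miR-22 is a deeply conserved miRNA made in many tissues, with reported roles in heart and skeletal muscle, in cell cycle arrest and in liver metabolism. Messengers reported as targets of miR-22-3p include Hdac4, a histone deacetylase, Sirt1, another deacetylase, and Ppara, a regulator of fatty acid oxidation. In liver cells, bile acids acting through the nuclear receptor FXR have been reported to raise miR-22.

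The mature sequences are shown first because the seed defines what each arm can pair with. They are written 5′ to 3′ with the seed in capitals, from RefSeq on GRCm38, which is the mm10 build named for these files.
miR-22-3p: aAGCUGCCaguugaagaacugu
miR-22-5p: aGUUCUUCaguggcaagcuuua
Both arms are 22 bases long. The seed of miR-22-3p is complementary to the site GGCAGCU in a messenger, and that of miR-22-5p to GAAGAAC, so the 2 arms address different sites. Of the 1623 miRNA names in the tables that matched a RefSeq mature sequence, 0 others had the same bases 2 to 8 as either arm. miR-22 therefore had no seed family among the miRNAs matched. Only bases 2 to 7 of miR-22-5p were shared, by miR-6935-3p and miR-7092-3p, and neither exceeded 6 counts in any library.

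The closest relative of miR-22-3p among the other 1004 RefSeq mouse hairpins was Mir3966 at chr10:97423478-97423562, whose best stretch differs from miR-22-3p at 3 positions. It is shown with the 7 bases it shares with the miR-22-3p seed in capitals.
miR-3966: AGCUGCCagcuguagaacugu
These letters lie at bases 1 to 7 of miR-3966, not at bases 2 to 8. miR-3966 had 9 and 11 counts in control 1 and 2 and 12 and 14 counts in TAA 1 and 2, against at least 7105890 for miR-22-3p in every library. Neither miR-22 arm occurs in full in another RefSeq hairpin. How many mismatches the aligner allowed is not given in these sources.

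Both arms come from the Mir22 hairpin at chr11:75463716-75463810 (GRCm38, plus strand), shown with the 5p and 3p arms in capitals, in that order.
Mir22: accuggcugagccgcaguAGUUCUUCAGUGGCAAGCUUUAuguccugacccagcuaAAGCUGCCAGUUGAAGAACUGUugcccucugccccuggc
The hairpin is 95 bases long and its arms are separated by 16 bases. In the fold of lowest predicted free energy, 19 bases of the 5p arm were paired with the 3p arm. GENCODE places the whole hairpin in exon 2 of Mir22hg, a non-coding host gene, so Mir22 is exonic, not intronic. The hairpin also lies inside Tlcd2, a protein-coding gene on the same strand that overlaps Mir22hg, in exon 2 of a Tlcd2 transcript annotated as a processed transcript.

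The libraries held between 42609845 and 48878003 miRNA counts, which were 65.4% to 68.7% of reads. The intervals given below are 95% Wilson intervals and cover counting error only. The liver identity of the libraries was checked with 10 hepatocyte miRNAs. Together they made up 42.2% of counts in control 1, 42.8% in control 2, 39.8% in TAA 1 and 41.2% in TAA 2. This sum rests largely on miR-192-5p, which is also an epithelial miRNA and held 23.3% to 24.5%. The most specific member, miR-122-5p, held 1.817% in control 1, 1.998% in control 2, 1.802% in TAA 1 and 1.837% in TAA 2. In every library it was below miR-143-3p of smooth muscle (2.30% to 3.09%) and miR-126a-5p of endothelium (2.01% to 2.35%). The other stellate, smooth muscle and endothelial miRNAs measured were below miR-122-5p. In contrast, 4 miRNAs of striated muscle, a tissue also known for miR-22, summed to between 2.69 and 4.46 CPM by library size, and 1 of them had no counts in any. CPM elsewhere uses library sizes adjusted by TMM factors, which allow for differences in library composition.

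miR-22-3p was the second most abundant miRNA of all 4 libraries. It had 7266809 counts in control 1, 8170555 in control 2, 7105890 in TAA 1 and 8346460 in TAA 2. As a share of all miRNA counts this was 17.1% in control 1, 17.7% in control 2, 16.2% in TAA 1 and 17.1% in TAA 2, and the half-width of the Wilson interval did not exceed 0.0113 percentage points. The lowest share was in TAA 1 and the highest in control 2, while control 1 (17.05%) and TAA 2 (17.08%) lay side by side, so by share the groups overlapped. Abundance was used to pick miR-22, so its level is a description.

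miR-192-5p, an epithelial and liver miRNA, lay above miR-22-3p in every library, at 23.3% to 24.5% of counts. miR-148a-3p, another hepatocyte miRNA, came next below with 6.86% to 7.73%. miR-30a-5p followed with 5.31% to 5.96%, and miR-10a-5p, from a Hox gene cluster, with 3.77% to 4.78%. The ranges of miR-192-5p, miR-22-3p and miR-148a-3p did not overlap one another, so the first 3 places of the order were separated by more than the spread over libraries. Counts of different miRNAs also depend on how well each sequence is ligated and amplified, so the order is one of reads.

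**Figure D1:**
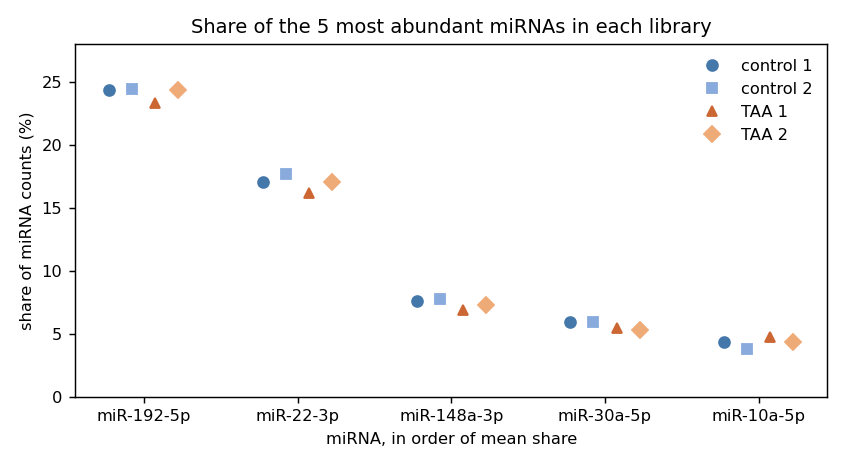
Share of all miRNA counts (%, vertical axis) for the 5 most abundant miRNAs (horizontal axis), with 1 symbol per library. miR-22-3p lies between 16.2% and 17.7%, below miR-192-5p and above miR-148a-3p in all 4 libraries.

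The comparison of TAA-treated with control liver asked whether miR-22 changed in TAA-induced fibrosis. miR-22-3p measured 171656 CPM in control 1, 191132 in control 2, 156340 in TAA 1 and 162696 in TAA 2. The TAA libraries were both below the controls, with means of 181394 ± 13772 CPM in control and 159518 ± 4495 CPM in TAA (SD, n = 2 each). In edgeR's quasi-likelihood test the log2 fold change was -0.19 (SE 0.09, 95% interval -0.40 to 0.03), and the adjusted p was 0.269, so miR-22-3p did not pass the threshold of 0.05. By comparison, 16.6% of the 644 miRNAs tested passed it in either direction, and 2.64% passed as lower. Both TAA libraries lay below both controls in 25.6% of all miRNAs tested, and the groups failed to overlap in either direction in 55.3%, so the lack of overlap in CPM is common. In bulk liver, fewer cells of a type and less RNA per cell cannot be told apart.

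The size of this difference depended on the scaling. The TMM factors were 0.994 and 0.925 in the controls and 1.04 and 1.05 in TAA, which lowers the TAA values relative to their shares. With library size alone the log2 fold change of miR-22-3p was -0.06, and with upper-quartile factors -0.36. Those scalings moved the median of all miRNAs to 0.12 and -0.17, against -0.0042 with TMM, and with factors taken from the hepatocyte miRNAs, where the median was 0.19, the value turned to 0.0081. Relative to the median miRNA of the same fit, miR-22-3p was at -0.19 to -0.18 under all of these scalings, so the scalings moved all miRNAs together. The adjusted p of miR-22-3p ranged from 0.0512, without control 1, to 0.964, with the hepatocyte factors.

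Set against the sum of the 10 hepatocyte miRNAs within each library, miR-22-3p overlapped between the groups. For each read of the 10 hepatocyte miRNAs together there were 0.404 reads of miR-22-3p in control 1, 0.413 in control 2, 0.407 in TAA 1 and 0.414 in TAA 2. The mean log2 ratio differed by 0.0081 between TAA and control, with SDs of 0.022 and 0.018 within control and TAA. The exact two-sided permutation p was 0.667, where 2 libraries against 2 allow no p below 0.333. The overlap was lost without miR-192-5p, the most abundant of the 10. The ratio was then 0.954 and 0.962 in the controls and 0.983 and 1.01 in TAA. Its log2 difference was 0.058 (exact permutation p = 0.333). Over the miRNAs common to many tissues, which include miR-21a-5p, miR-26a-5p and let-7 members, the same log2 ratio differed by -0.16 (exact permutation p = 0.333), with both TAA libraries, at 0.706 and 0.777, below both controls, at 0.807 and 0.850.

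The hepatocyte miRNAs as a list resembled miR-22-3p in sign. Of the 10 tested, 0 passed the edgeR test, and DESeq2 and limma-voom also called 0. By edgeR 5 had an unadjusted p under 0.05, as did 25.6% of all 644 miRNAs. The list's median was -0.25 on the log2 scale, against -0.0042 for all miRNAs tested. In 9 of the 10 both TAA libraries were lower than either control by CPM, as they were in 25.6% of all miRNAs. By share of counts, with no TMM factors, the groups overlapped for miR-122-5p, miR-192-5p and miR-194-5p, which are among these. miR-122-3p, the minor arm of the main hepatocyte miRNA, had -0.32 (adjusted p = 0.107), miR-30a-5p -0.26 (adjusted p = 0.114) and miR-192-5p -0.16 (adjusted p = 0.330), all by edgeR. With upper-quartile factors 2 of the list passed as lower, and likewise 2 with the filter on low counts removed. With library size alone, hepatocyte factors or 10 CPM in 2 libraries, 0 passed and 0 had an unadjusted p under 0.05. The list's median log2 fold change was -0.32 without control 1, -0.18 without control 2, -0.24 without TAA 1 and -0.25 without TAA 2. Here and below, a fit without 1 library leaves a single library in its group, which is assumed to vary like the pair in the other group.

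Pair by pair, miR-22-3p was compared with the other 4 leading miRNAs and with miR-122-5p, the defining miRNA of hepatocytes. Its reads per read of miR-192-5p were 0.701 and 0.723 in the controls and 0.695 and 0.701 in TAA. Per read of miR-122-5p they were 9.39 and 8.85 in the controls and 8.997 and 9.30 in TAA. In both cases the groups overlapped. They also overlapped per read of miR-30a-5p, at 2.88 and 2.97 in the controls and 2.96 and 3.22 in TAA, a log2 difference of 0.077. Per read of miR-10a-5p they were 3.95 and 4.69 in the controls and 3.39 and 3.96 in TAA, a log2 difference of -0.23, again with overlap. Per read of miR-148a-3p they were 2.25 and 2.29 in the controls and 2.36 and 2.34 in TAA, a log2 difference of 0.053 with no overlap. The lowest exact permutation p of the 5 comparisons was 0.333, which is the smallest possible, and 0.833 after Benjamini-Hochberg adjustment.

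The other arm, miR-22-5p, was a minor product and is not among the most abundant liver miRNAs by itself. It had 7181 counts in control 1, 6210 in control 2, 6733 in TAA 1 and 6189 in TAA 2. Its share of miRNA counts was 0.0169%, 0.0134%, 0.0154% and 0.0127% in the same order, and it ranked between 104 and 126 in the libraries. In the order of mean shares, place 117, its neighbours were miR-30c-2-3p and miR-195a-5p above and let-7b-3p and miR-652-3p below. Their ranges over the libraries all overlapped that of miR-22-5p, so its place among them is not resolved.

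miR-22-5p did not pass the test between groups. It measured 169.6 CPM in control 1, 145.3 in control 2, 148.1 in TAA 1 and 120.6 in TAA 2, or 157 ± 17.2 CPM in control and 134 ± 19.4 CPM in TAA (SD, n = 2 each). TAA 1 lay above control 2, so the groups overlapped. The log2 fold change was -0.23 (SE 0.16, 95% interval -0.60 to 0.14; edgeR adjusted p = 0.433), and it was negative in each of the 15 other settings tried, between -0.39 and -0.041. Neither arm passed in any of them.

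**Figure D2:**
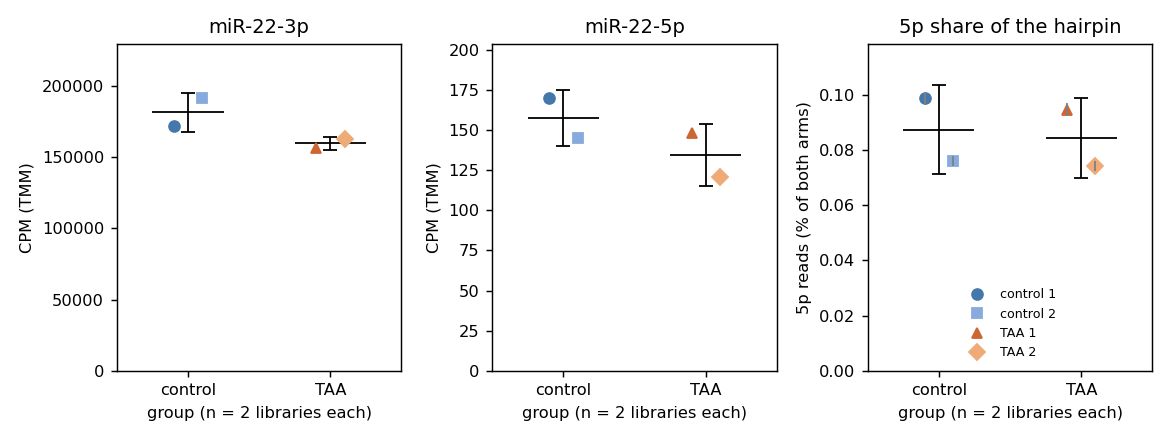
CPM of miR-22-3p, CPM of miR-22-5p and the 5p share of the hairpin's reads (%), with 1 symbol per library; black bars give the mean ± SD of 2 libraries and grey bars in the right panel 95% Wilson intervals. The 5p arm is highest in control 1 and lowest in TAA 2, and its share of the hairpin is 0.0987% and 0.0947% in the libraries numbered 1 and lower in both numbered 2.

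**Figure D3:**
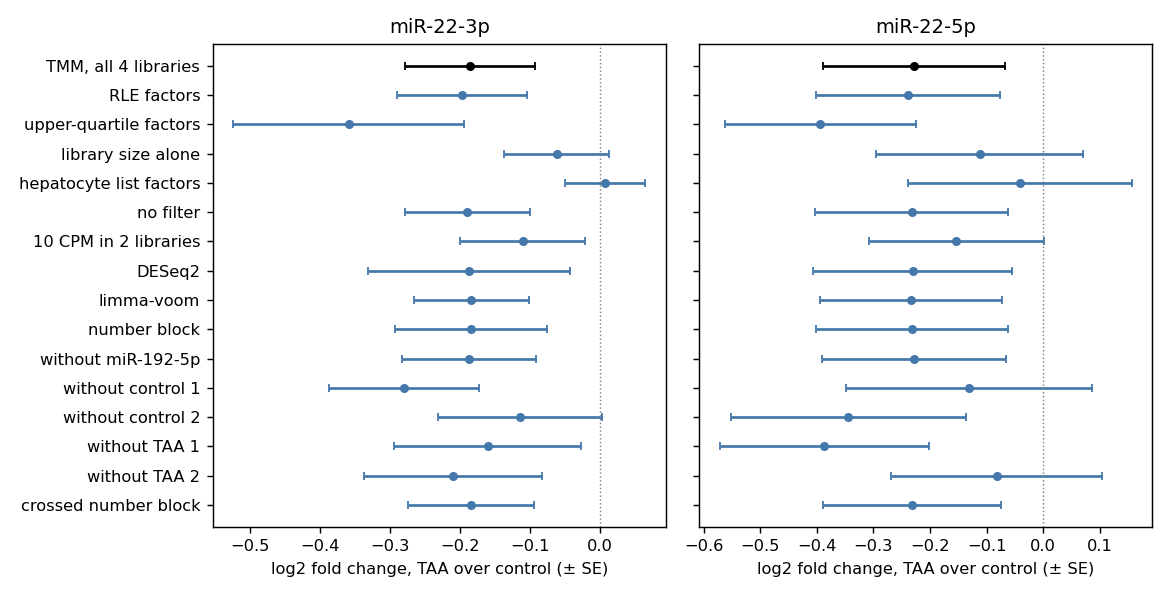
Log2 fold change of TAA over control (horizontal axis, ± SE) for each arm, with the reported fit in black and each other setting in blue. miR-22-3p runs from -0.36 with upper-quartile factors to 0.0081 with hepatocyte factors, and miR-22-5p from -0.39 to -0.041.

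The arms were very unequal. For every read of miR-22-5p there were 1012 reads of miR-22-3p in control 1, 1316 in control 2, 1055 in TAA 1 and 1349 in TAA 2. The 5p arm therefore made up 0.0987% of the hairpin's reads in control 1 (interval 0.0965% to 0.101%), 0.0759% in control 2 (0.0741% to 0.0779%), 0.0947% in TAA 1 (0.0924% to 0.0969%) and 0.0741% in TAA 2 (0.0723% to 0.0760%). One arm of a hairpin is usually kept in Argonaute while the other is degraded, and by reads the 3p arm was the retained one in all 4 libraries.

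Among 150 hairpins in which both arms averaged 20 counts or more, 72 had more 3p than 5p reads on average. miR-22 held place 5 from the most 3p-sided end, with a mean log2 ratio of 5p over 3p of -10.20. miR-143, miR-23b and miR-27b were just beyond it, at -11.77, -10.83 and -10.55, and miR-130a, miR-107 and miR-25 came next, at -9.77, -9.43 and -9.02. Hairpins whose rare arm fell under 20 counts were not ranked, so other one-sided hairpins may be missing from this order.

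**Figure D4:**
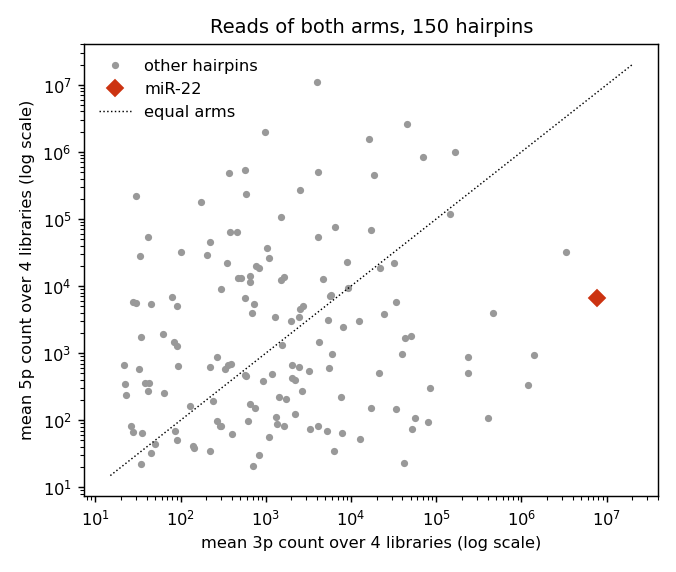
Mean count of the 5p arm against mean count of the 3p arm over 4 libraries, both on log scales, for 150 hairpins; the dotted line marks equal arms. miR-22 (red) lies at 7722429 reads of 3p and 6578 reads of 5p, far below the line.

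The arm ratio did not pass the test between the groups. Its log2 value was -9.98 in control 1, -10.36 in control 2, -10.04 in TAA 1 and -10.40 in TAA 2, and the groups overlapped. The mean difference of TAA from control was -0.048 (SE 0.23, 95% interval -0.63 to 0.54; limma adjusted p = 0.985 over the 150 hairpins). limma called 0 hairpins (0%), with 5 at an unadjusted p under 0.05. The sign turned when 1 library was left out, to 0.14 without control 1 and 0.13 without TAA 2.

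The arm ratio differed between the libraries of each group in the same direction. The ratio of 5p to 3p was 1.30 times higher in control 1 than in control 2 (counting interval 1.26 to 1.35) and 1.28 times higher in TAA 1 than in TAA 2 (1.23 to 1.32), a gap beyond counting error in both groups. By CPM this came from both arms, since miR-22-5p was 1.17 and 1.23 times higher in the libraries numbered 1, and miR-22-3p was 0.898 and 0.961 times as high. How the gap divides between the arms depends on the TMM factors. By share, miR-22-5p was 0.0169% and 0.0134% in control 1 and 2, and miR-22-3p 17.05% and 17.68%. In TAA 1 and 2 the shares were 0.0154% and 0.0127% for miR-22-5p, and 16.2% and 17.1% for miR-22-3p. The labels do not say that a number marks a shared batch. Across the 150 hairpins the ratio was higher in number 1 in both groups for 43, lower in both for 38 and opposite in the groups for 69, so hairpins in general did not share the direction seen for miR-22. The libraries numbered 2 were the deeper ones, with 46224018 and 48878003 miRNA counts against 42609845 and 43836911. The part of depth in the arm ratio was not tested.

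Neither arm was among the miRNAs most like the other across the 4 libraries. Likeness was measured as the root mean square difference of log2 CPM, each miRNA centred on its own mean, among the 136 other miRNAs with a mean of at least 100 CPM. miR-22-5p was in place 83 in order of likeness to miR-22-3p, with a difference of 0.185, above the median of 0.159 for all 136. From the side of miR-22-5p, the same difference put miR-22-3p in place 65, below that side's median of 0.193. The miRNAs most like miR-22-3p were miR-192-5p (0.0216), miR-148a-3p (0.0280), miR-1843a-5p (0.0296), miR-151-5p (0.0334) and miR-122-5p (0.0347). All of these were highest in control 2, and 3 of them, miR-192-5p, miR-148a-3p and miR-122-5p, are on the hepatocyte list. The TMM factor was lowest in control 2 (0.925), which raises every miRNA there relative to its share. It enters all miRNAs of a library alike, so the shape across libraries depends on it, while the differences between miRNAs hardly do. Those most like miR-22-5p were miR-455-3p (0.0520), miR-29a-3p (0.0969), miR-361-5p (0.101), miR-152-3p (0.105) and miR-100-5p (0.106), all lowest in TAA 2. With 4 libraries these are descriptions with no test.

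**Figure D5:**
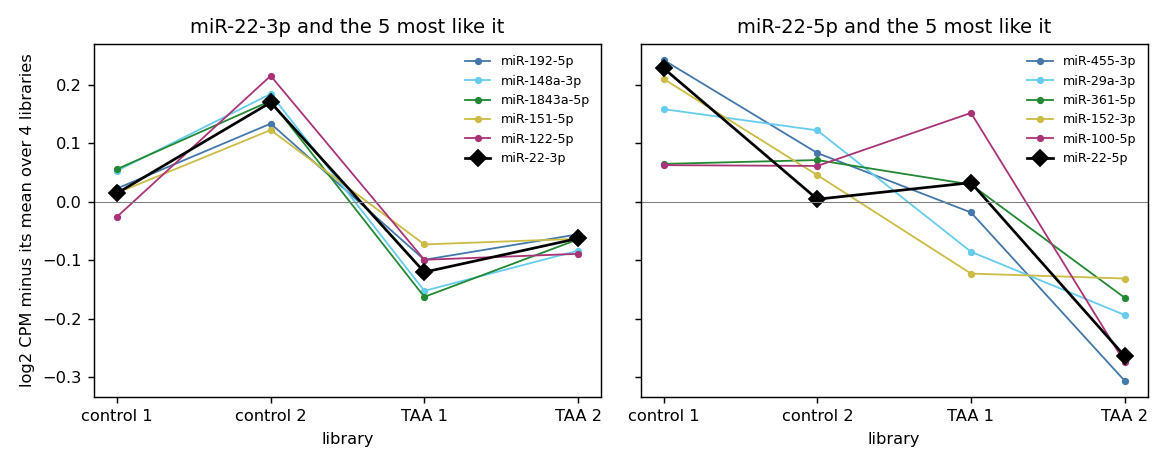
Log2 CPM minus its mean over the 4 libraries (vertical axis) in each library (horizontal axis) for each miR-22 arm (black) and the 5 miRNAs most like it; lines only join the values of 1 miRNA. The miR-22-3p group is highest in control 2 and below its mean in both TAA libraries, and the miR-22-5p group is lowest in TAA 2. CPM is scaled by TMM factors, of which control 2 has the lowest (0.925).

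The spread within groups was also unlike. On the log2 CPM scale, the SD of libraries within groups was 0.083 for miR-22-3p and 0.19 for miR-22-5p, against a median of 0.10 over 137 miRNAs with a mean of at least 100 CPM. Of these, 48 had a smaller SD than miR-22-3p and 102 a smaller SD than miR-22-5p. The more abundant arm was thus the less variable of the pair.

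Within 500 kb on chromosome 11 RefSeq places Mir3971, 87.6 kb away and with no counts in any library, and the pair Mir132 and Mir212, 290.0 and 290.2 kb away. miR-212-3p, from a hairpin pair known to be induced by CREB signalling, measured 3.78 and 4.80 CPM in the controls and 6.78 and 7.60 CPM in TAA-treated liver. It passed as higher, with a log2 fold change of 0.75 (SE 0.21, edgeR adjusted p = 0.0474), as did 14.0% of all 644 miRNAs. By edgeR, miR-212-5p (0.58, adjusted p = 0.0561), miR-132-3p (0.44, adjusted p = 0.195) and miR-132-5p (0.39, adjusted p = 0.339) did not pass. miR-212-5p did pass with DESeq2 (adjusted p = 0.0158), limma-voom (0.0439), library size alone (0.0244), hepatocyte factors (0.0231), no low-count filter (0.0442) and 10 CPM in 2 libraries (0.0427). The call of miR-212-3p was lost with RLE factors (adjusted p = 0.0512), with upper-quartile factors (0.135) and without control 1 (0.179), TAA 1 (0.169) or TAA 2 (0.240). None of the 4 had a log2 fold change of the sign of miR-22-3p.

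miRNAs of other cell types were measured beside miR-22, since a mixed tissue can gain or lose cells. The summed share of 7 leukocyte miRNAs was 0.121% in control 1, 0.167% in control 2, 0.259% in TAA 1 and 0.217% in TAA 2, and 3 of the 7 rose by edgeR, among them miR-150-5p of lymphocytes. Over all 644 miRNAs, 14.0% were called higher, the background for this and the following lists. The leukocyte count was 6 with library size alone or no low-count filter, 7 when control 2 was left out and 1 when either TAA library was. The most abundant, miR-142a-5p, had a log2 fold change of 0.57 (adjusted p = 0.138). The 5 erythroid miRNAs summed to 0.0442% in control 1, 0.0253% in control 2, 0.0758% in TAA 1 and 0.276% in TAA 2. All 5 of them, miR-486a-5p being the most abundant, passed as higher by edgeR. With DESeq2 0 of the 5 passed, with 5 at an unadjusted p under 0.05 and an adjusted p of 0.0663 for miR-486a-5p. limma-voom called 2 of the 5. With the stricter minimum of 10 CPM in 2 libraries 3 were tested and 0 passed, all 3 having an unadjusted p under 0.05. Without TAA 2, 0 passed, and 4 had an unadjusted p under 0.05.

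The 6 stellate and smooth muscle miRNAs, led by miR-143-3p, held 2.76% (control 1), 2.60% (control 2), 3.28% (TAA 1) and 2.45% (TAA 2) of counts, and miR-214-3p alone passed as higher (log2 fold change 0.65, edgeR adjusted p = 0.0354). The count passing as higher was 2 with DESeq2, 3 with library size alone or no low-count filter, and 0 with upper-quartile factors. In the fits without 1 library, 3 passed as higher without control 1, 1 passed as lower without control 2, and 0 passed without TAA 1 or TAA 2. The 2 endothelial arms, miR-126a-5p and miR-126a-3p, held 2.52% and 2.70% in the controls and 2.74% and 2.38% in TAA, and neither passed. The 5 miRNAs of biliary and other epithelium, led by miR-200b-3p, held between 0.0349% and 0.0396%, and 2 fell, miR-141-3p and miR-200c-3p, where 2.64% of all miRNAs were called lower. With hepatocyte factors 0 passed (edgeR adjusted p = 0.0957 for miR-141-3p and 0.0985 for miR-200c-3p). At 10 CPM in 2 libraries 4 were tested and 0 passed (edgeR adjusted p = 0.0650 for miR-141-3p). miR-200c-3p, at no more than 8.22 CPM in any library, was not tested there. The list's median log2 fold change was -0.21 without control 1, -0.13 without control 2, -0.20 without TAA 1 and -0.11 without TAA 2. The 10 miRNAs common to many tissues held 21.1% and 20.8% in the controls and 22.9% and 21.98% in TAA; 0 passed by edgeR, DESeq2 or limma-voom, and 1 had an unadjusted p under 0.05. The pancreatic list was led by miR-375-3p at 103 CPM in control 1 and 8.47 to 10.2 CPM in the other 3 libraries, which did not pass. By edgeR it passed as lower with upper-quartile factors (adjusted p = 0.0193), library size alone (0.0184) and no low-count filter (8.6e-32). In control 1, control 2, TAA 1 and TAA 2, miR-216a-5p had 113, 0, 10 and 0 counts and miR-217-5p 125, 0, 6 and 5. Each pancreatic miRNA was thus highest in control 1. The part of these cell types in the level of miR-22 was not tested.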

How the data were processed

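The authors deposited a table of raw counts for each library, giving the reads of every mature miRNA, made with Bowtie and HTSeq on mm10, per the submitters' processing notes. No source used here gives versions, settings, adapter trimming or the miRNA annotation release. The 5 summary rows of each file, 31.3% to 34.6% of reads, name no miRNA and were left out. Counts were compared with edgeR 4.0.16 under R 4.3.3, using filterByExpr, TMM factors, the quasi-likelihood F test and Benjamini-Hochberg adjustment over 644 miRNAs. The standard error is the size of the log2 fold change divided by the square root of F. Arm ratios, log2 of 5p over 3p counts each plus 0.5, were tested with limma 3.58.1. The hairpin was folded with ViennaRNA 2.7.2. The procedures were tested on simulated data. Replicates differed beyond read-sampling noise (chi-square per degree of freedom 237 and 324).

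The members and lists were chosen with earlier results of these data known. The text names the arms, the 5 most abundant miRNAs, the neighbours of miR-22-5p in the order of levels, the 5 miRNAs most like each arm, seed sharers, hairpins within 500 kb, and the leading members of each list. Alternatives were other normalization factors, filters, limma-voom, DESeq2 1.42.0, a block for the replicate number, omission of each library, and other settings of the ratios.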

Additional observations from a re-analysis of the deposited data

How the results depend on the processing

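With 2 libraries per group and no named batches, differences the size of those seen for miR-22 were not called. miR-22-3p kept its sign in each of 15 alternatives except the hepatocyte factors (0.0081), and miR-22-5p in all 15. Neither passed in any.

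Leaving out 1 library at a time, which assumes that the lone library of a group varies like the other group, gave log2 fold changes of -0.28 to -0.11 for miR-22-3p and -0.39 to -0.082 for miR-22-5p, arm ratio differences of -0.24 to 0.14, hepatocyte ratio differences of -0.0073 to 0.024, and 49 to 131 changed miRNAs against 107 (54 without TAA 1, 49 without TAA 2). Requiring 10 CPM in 2 libraries left 41. The log2 difference of the miR-22-3p ratio, 0.0081 over the hepatocyte list, was 0.058 without miR-192-5p in the list, -0.074 over all other miRNAs and -0.16 over the miRNAs common to many tissues.

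The replicate numbers of the groups carry no stated pairing, and deviations of same-numbered libraries did not correlate over the 644 miRNAs (Pearson r = -0.0051). Over the 137 with at least 100 CPM, Pearson r was -0.46 and the Spearman rank correlation was -0.17. With the replicate block, miR-22-3p had -0.18 (edgeR adjusted p = 0.355), miR-22-5p -0.23 (adjusted p = 0.487) and the arm ratio -0.048 (limma adjusted p = 0.968), and 110 miRNAs changed. Of the 6 stellate and smooth muscle miRNAs, 3 passed as higher with the block against 1 without it, miR-199a-3p among them (edgeR adjusted p = 0.0352). With the numbers crossed, an alternative chosen after seeing the data, 115 changed.

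Of 39 other miRNAs followed through these settings, some log2 fold changes turned sign. Each scaling moves all miRNAs together, the median being -0.17 with upper-quartile factors, 0.12 with library size alone and 0.19 with hepatocyte factors. With upper-quartile factors miR-10a-5p was -0.12 and miR-195a-5p -0.076. With library size alone miR-143-3p was 0.079, miR-126a-3p 0.080, let-7b-3p 0.094 and miR-100-5p 0.012. With hepatocyte factors miR-192-5p was 0.036, miR-30d-5p 0.038, miR-143-3p 0.15, miR-126a-5p 0.026, miR-126a-3p 0.15, miR-200b-3p 0.037, let-7b-3p 0.16, miR-30c-2-3p 0.067, miR-151-5p 0.055, miR-122-5p 0.0018, miR-361-5p 0.060 and miR-100-5p 0.085. The cause of the turns that follow was not tested. At 10 CPM in 2 libraries miR-143-3p was 0.033, miR-126a-3p 0.033 and let-7b-3p 0.047. Over the fits that leave out 1 library, miR-375-3p ran from -3.41 (without control 2) to 0.19 (without control 1), let-7b-3p from -0.065 to 0.0034, miR-195a-5p from -0.15 to 0.30, miR-100-5p from -0.34 to 0.095, miR-10a-5p from -0.040 to 0.14, miR-143-3p from -0.28 to 0.17 and miR-126a-3p from -0.11 to 0.016.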
